A study of Arabidopsis thaliana with 4 samples.

Results

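Dense clusters of accessible regions were stretches of the Arabidopsis thaliana genome in which open sites followed each other at short intervals. DNase I-seq peaks of 4 natural accessions were merged where they touched or overlapped, which gave 36153 regions on the 5 nuclear chromosomes. Neighbouring regions were then chained wherever the gap between them was 500 bp or less. The cluster regions were those in chains of 5 or more regions: 2422 regions (6.70% of all) in 415 clusters, with 33731 other regions left outside. These clusters were chosen by the peak calls themselves, so the number and spacing of calls in them are description, and no test is given.

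The accessions were Bay-0, Bur-0, Est-1 and Tsu-1, with a single library apiece from 7-day-old whole seedlings grown in long days. All 4 carried the INTACT line UBQ10:NTF::ACT2:birA, in which a nuclear envelope tag driven by the UBQ10 promoter is biotinylated by a ligase driven by the ACT2 promoter, so that nuclei of most cell types are captured together. The labels give Col-0 as the genetic background of all 4 samples while the sample titles carry the names above. One of those names, Tsu-1, reads Tsu-0 in the text of the series; names follow the samples here. Differences between accessions rest on single libraries, have no replicate check and carry no p-value.

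DNase I cuts DNA most readily where nucleosomes are missing or displaced, which in plants marks promoters, enhancers and other sites bound by regulatory proteins. Genes whose expression depends on many inputs, such as those of transcription factors and hormone response, often carry several such sites in series in the DNA around them. Dense groups of hypersensitive sites are known from developmental regulators of plants and animals.

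The Bay-0 list held 28821 nuclear peaks, the Bur-0 list 25298, the Est-1 list 29699 and the Tsu-1 list 27388, on the TAIR10 reference. Sequencing depth is unknown here, and a peak that was not called is not a measure of closed chromatin. Reads were aligned to the Col-0 reference, so a site can also go uncalled where the sequence of an accession differs from it. As a check of the labelled tissue, 5 of 5 genes of green seedlings (LHCB1.1, LHCB2.1, RBCS1A, RCA and CCA1) had a peak within 1000 bp in all 4 lists, and 2 of 6 seed storage genes did. The same share over all protein-coding genes is not given here, so these few genes do not settle the tissue. Both genes of the line label lay outside the clusters: the regions nearest to UBQ10 and to ACT2 stood in chains of at most 2 regions. Bounds in brackets are those of 95% exact intervals (Clopper-Pearson), which take in counting error alone.

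Most clusters were small. Chains of exactly 5 regions made up 227 of the 415 clusters, chains of 6 made up 97, chains of 7 made up 58 and chains of 8 made up 18. The remaining 15 clusters held 9 to 14 regions. Clusters spanned 1170 to 5270 bp with a median of 2130 bp, and the gap between neighbouring regions in them had a median of 230 bp. In 217 clusters the largest gap was over 400 bp, close to the limit of the chaining rule. Chromosomes 1 to 5 held 110, 55, 75, 74 and 101 clusters. The chains just outside the threshold, 525 chains of 4 regions, had a median span of 1470 bp, and 52.6% of their regions were called in all 4 accessions. Chains of 5, just inside, had a median span of 1870 bp and 55.5% of their regions in all 4. The number of clusters followed the rule closely: it was 102 with gaps of at most 300 bp and 1326 with gaps of at most 1000 bp, and 198 when a region had to be called in at least 2 lists.

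Cluster regions stood away from genes more often than other regions did. Of the cluster regions, 1063 (43.9%, 41.9 to 45.9) had their midpoint more than 1000 bp from either end of any protein-coding gene and outside gene bodies, called distal here, against 19.4% (19.0 to 19.8) of the other regions. Midpoints within 400 bp of a gene end made up 646 of the 2422 cluster regions (26.7%, 24.9 to 28.5), against 57.1% (56.5 to 57.6) of the other regions and 55% of all regions. Flanks between these distances held 25.5% of cluster regions and 16.5% of other regions. Gene interiors held 3.92% of cluster regions and 7.00% of other regions. The distal share also rose with chain length outside clusters. It was 16.8% in chains of 1 region, 30.2% in chains of 4 and 38.4% in chains of 5. The distance to the nearest protein-coding gene had a median of 753 bp for cluster regions and 41 bp for other regions. The gene table carries no strand, so the 5′ and 3′ sides of genes were not told apart. These shares are bound up with the rule to a degree that was not tested, because 5 regions in series need a span that a short space between genes does not offer.

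**Figure D1:**
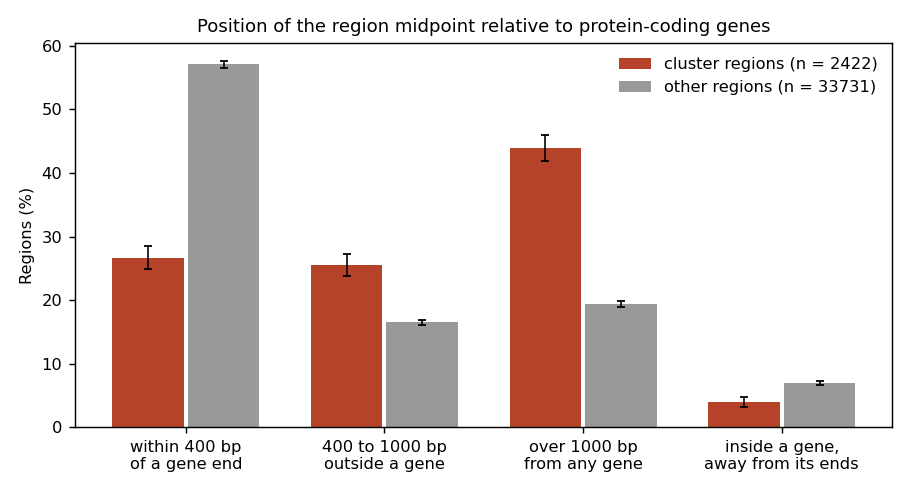
Bars show the percentage of cluster regions and of other regions in each of 4 classes of position relative to protein-coding genes, with 95% exact intervals as whiskers. Cluster regions were at gene ends in 26.7% of cases against 57.1% of other regions, and distal in 43.9% against 19.4%.

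Wide spaces between genes held most clusters. In 148 clusters no region touched a protein-coding gene anywhere along the span, 214 clusters overlapped 1 gene and 53 overlapped 2 or more. For the 394 clusters whose middle lay between genes, that space had a median length of 4375.5 bp. Only 6 clusters lay wholly inside 1 gene, at CYCJ18, AT5G13250, AT2G07981, AT2G08986, AT3G26440 and AT5G66650. Annotated long noncoding RNA genes overlapped 71 clusters, and 96 cluster regions (3.96%, 3.22 to 4.82) overlapped one, against 3.26% (3.07 to 3.46) of other regions. No cluster overlapped an annotated pseudogene, and 2 overlapped a microRNA gene, MIR8166 and MIR5642a. Such overlaps were rare outside clusters too, where 0.213% of other regions overlapped a pseudogene and 0.293% a transcribed pseudogene. Counted by region, 1 cluster region (0.0413%) and 0.0356% of other regions overlapped a microRNA gene.

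Each cluster was assigned to a leading gene, the protein-coding gene nearest to the largest number of its regions. The 12 clusters with the most regions held 128 regions, 74 of them distal and 25 at gene ends. In what follows, the strength of a region in an accession is the rank of the authors' signal value within that list, as a percentile with 100 for the strongest peak. The authors' signal was used only to rank peaks within a list.

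PLP9, a gene of the patatin-like phospholipase family, led the cluster with the most regions. It held 14 regions on chromosome 3 (23347281 to 23352470), of which Bay-0 called 12, Bur-0 10, Est-1 13 and Tsu-1 13. The first region touched PLP9, and the row ran 5190 bp through the space between PLP9 and AT3G63210. Its strongest region lay 5020 bp from the start of the cluster, nearer to AT3G63210, and ranked 99.1 in Bay-0, 99.6 in Bur-0, 98.3 in Tsu-1 and 99.6 in Est-1. Of the 14 regions, 9 were called in all 4 accessions, and the merged regions with an Est-1 call formed a chain of 13.

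RLT2, which encodes a homeodomain protein of the RINGLET group that acts with chromatin remodelling factors, led 12 regions on chromosome 5 (17789981 to 17794450). GLK2, a transcription factor gene of chloroplast development, stood at the other side of the same space. Bay-0 called 7 of the regions, Bur-0 8, Est-1 7 and Tsu-1 10. The cluster fell into a shared part and a mixed part. From 620 to 2700 bp after the start, 5 regions were called in all 4 lists, and the last of them ranked 99.6 in Bay-0, 99.5 in Bur-0, 99.7 in Tsu-1 and 99.7 in Est-1. Beyond it no region was called in all 4. At 2940 bp stood a region called in Bay-0 with rank 98.7 and at 3120 bp one called in Tsu-1 with rank 99.0. At 3480 bp stood one called in Bur-0 with rank 95.5, and each was absent from the other lists. The Bay-0 region ended at 17793070 and the Tsu-1 region began at 17793101. Whether they are separate sites or shifted peaks of the same site was not tested.

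LBD37, a LOB-domain transcription factor gene linked to nitrogen status and anthocyanin synthesis, and AT5G67411 shared the regions of the next cluster on chromosome 5 (26899681 to 26904050), with 6 of 12 regions nearest to each. Bay-0 called 8 of them, Bur-0 9, Est-1 10 and Tsu-1 8. The 5 regions called in all 4 accessions included 4 of the 6 nearest to LBD37, and the region 1436 bp from that gene ranked 99.7 in Bay-0, 99.4 in Bur-0, 99.4 in Tsu-1 and 99.8 in Est-1. It was the strongest in every list but Bay-0, where the region 596 bp from LBD37 ranked as high to 1 decimal. Around 2000 bp from the start, Bur-0 had a region ranked 98.7 that no other list held. The next region, 200 bp further, was absent from Bur-0. It was called in the other 3 lists with ranks of 96.6 in Bay-0, 96.7 in Tsu-1 and 93.0 in Est-1. The Bur-0 region ended at 26901790 and the next one began at 26901841. Whether they are separate sites or shifted peaks of the same site was not tested.

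Clusters of 11 regions stood at AT5G65660, AT1G69760 and AT5G61997. The cluster between AT5G65660 and IAA9, an auxin-response repressor gene, had 9 regions called in Bay-0, 10 in Bur-0, 10 in Tsu-1 and 11 in Est-1. Its strongest region was 2418 bp from IAA9 and ranked 99.8 in Bur-0 and above that in the other 3 lists. The cluster between AT1G69760 and CMT3, a DNA methyltransferase of non-CG sites, had 9 regions called in Bay-0, 9 in Bur-0, 10 in Tsu-1 and 10 in Est-1. All its regions but the first were distal. At AT5G61997 the counts were 10 in Bur-0 and 9 in each other list.

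**Figure D2:**
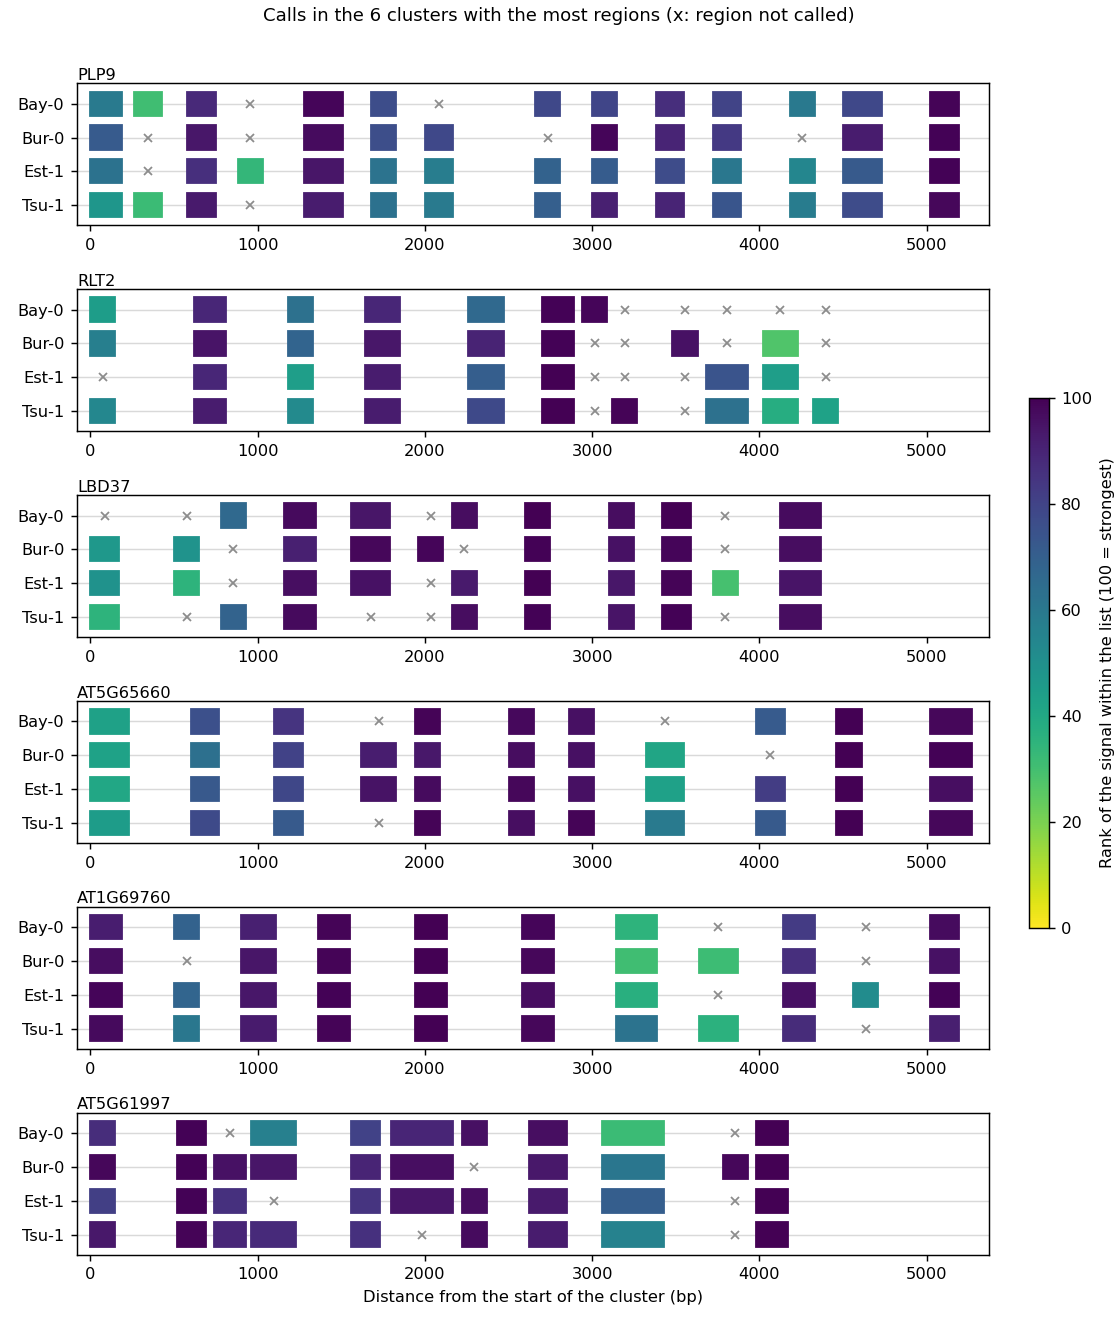
Each panel is a cluster named by its leading gene, with distance from the cluster start in bp on the horizontal axis and 1 row per accession. Filled boxes are called regions coloured by their rank in that list, and crosses are regions not called; the 14 regions of PLP9 are called 12, 10, 13 and 13 times from the top row to the bottom, and at RLT2 the calls differ between rows beyond 2700 bp.

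RAV1, a transcription factor gene with AP2 and B3 domains, led a cluster of 10 regions (chromosome 1, 4535021 to 4538950), every one of them distal. The 7 regions nearest to RAV1 lay 3218 to 5818 bp from it, and the other 3 were nearest to GATL3, a glycosyltransferase family gene. Bay-0 called 8 of the regions, Bur-0 9, Est-1 10 and Tsu-1 9. The 8 regions called in all 4 lists ranked 73.9 or higher in each. CYCJ18, a cyclin gene, held a different form of cluster, with 9 of 10 regions in the interior of the gene and the last at its end (chromosome 2, 412081 to 415750). Bay-0 called 7 of these, Bur-0 9, Est-1 9 and Tsu-1 8, and the strongest ranked 87.3 in Bay-0, 89.7 in Bur-0, 93.0 in Tsu-1 and 84.6 in Est-1.

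The remaining large clusters stood at AT2G40004 with 10 regions and at GASA1, AT1G21050 and PLS with 9 each. GASA1 encodes a small gibberellin-regulated peptide, and its cluster had 7 regions called in Bay-0, 7 in Bur-0, 7 in Tsu-1 and 8 in Est-1. PLS encodes the POLARIS peptide of root growth and ethylene response. Its cluster reached from BRI1, the brassinosteroid receptor gene, to WRKY13, with 8 regions called in Bay-0, 9 in Bur-0, 7 in Tsu-1 and 8 in Est-1. The region 362 bp from PLS was the strongest, at ranks of 98.2 in Bay-0, 99.1 in Bur-0, 99.3 in Tsu-1 and 95.5 in Est-1.

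In all, 402 protein-coding genes led a cluster, 1.46% of the 27444 on the nuclear chromosomes. Of them 190 (47.3%) had no symbol in the gene table, so lists built from symbols miss many. Family members with other symbols are missed as well, such as the leading genes RLT2, BZO2H3, DEAR2 and DEAR3, and the counts below are of the lists, not of whole families. Genes on 10 lists of transcription factor families led 54 of the 415 clusters (13.0%, 9.93 to 16.6), while 3.51% of all protein-coding genes were on those lists. Counted by gene, 52 of 964 transcription factor genes led a cluster (5.39%, 4.05 to 7.01), against 1.32% (1.19 to 1.47) of the genes on none of these lists. Space moved with this: transcription factor genes had a median of 3133.5 bp in the larger of their 2 flanking spaces and genes outside the lists 1409 bp. Among genes with at least 3000 bp on a side, a limit chosen after the data were seen, 37 of 502 transcription factor genes (7.37%) led a cluster, against 3.42% of genes outside the lists. The part that space between genes has in the rest of the difference was not tested. Clusters led by transcription factor genes had 60.8% (55.2 to 66.3) of their regions in all 4 accessions, against 55.7% (53.5 to 57.8) in the other clusters. These intervals overlap, and the regions differed in strength, with a median highest rank of 80.2 against 74.8. All 4 lists had their strongest region in common in 24 of these 54 clusters and in 202 of the 361 other clusters. No interval is given for these shares, so no difference is read from them.

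AP2/ERF genes, whose products include ethylene, drought and growth regulators, led clusters in 8 of 84 cases (9.52%, 4.20 to 17.9), set against 1.46% of all genes. They were RAV1, RAV2, TEM1, ESE3, ERF9, CRF6, RAP2.4 and RAP2.10. RAV2 had 7 regions, of which Bay-0 called 4, Bur-0 6, Est-1 4 and Tsu-1 6. Homeobox genes led in 7 of 92 cases (7.61%, 3.11 to 15.1): ATML1, an epidermal identity gene, the HD-ZIP genes HAT9, HB-7, HB-12 and HB16, and the BELL-type genes BLH3 and BLH4. At HAT9, of 6 regions, 4 were called in Bay-0, 6 in Bur-0, 3 in Tsu-1 and 3 in Est-1. At ATML1, Bay-0 called 5 of 7 regions and each other list called 6.

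MYB genes led clusters in 8 of 133 cases (6.02%), including MYB3 and MYB4, repressors of phenylpropanoid genes, RVE1, a clock-related MYB that links to auxin, and TCL2, a repressor of trichome fate. WRKY genes led in 4 of 69 cases (5.8%, 1.602 to 14.2). C2H2 zinc finger genes did so in 3 of 39 (7.69%, 1.62 to 20.9). NAC genes led in 4 of 96 (4.17%, 1.15 to 10.3) and bHLH genes in 3 of 65 (4.62%, 0.962 to 12.9). Among bZIP genes 3 of 57 led (5.26%, 1.099 to 14.6), and among B-box genes 1 of 30, COL5 (3.33%, 0.0844 to 17.2). The intervals of the NAC, bHLH, bZIP and B-box lists take in the 1.46% of all genes. The largest clusters led by genes of these lists had 8 regions each. At WRKY11, a regulator of basal defence, Bay-0 called 6, Bur-0 7, Est-1 6 and Tsu-1 8. At NAC083 all 8 regions were nearest to the same gene, and Bay-0 called 7, Bur-0 8, Est-1 8 and Tsu-1 7. COL5, a CONSTANS-like gene, led 2 clusters, with 8 and 5 regions. The list of other developmental families gave 11 of 299 (3.68%, 1.85 to 6.49), among them LBD37, OBP4, KAN3, STY1, TCP9, GRF4 and the DELLA gene GAI.

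Auxin genes were prominent among the hormone lists by share, on small numbers. Aux/IAA genes, which encode repressors degraded in the presence of auxin, led clusters in 4 of 26 cases (15.4%, 4.36 to 34.9), at SHY2, IAA14, IAA16 and IAA29. Auxin transport and receptor genes did so in 4 of 25 cases (16.0%, 4.54 to 36.1), among them the influx carrier gene LAX1, the kinase gene WAG2 and the receptor gene TIR1. At the rate of all genes these lists would have held 0.381 and 0.366 leading genes. SAUR and GH3 genes led in 1 of 26 cases, DFL1, a GH3 enzyme gene.

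The SHY2 cluster lay in the space of 6388 bp between SHY2 and AXR3, both Aux/IAA genes, and spanned 3790 bp of it on chromosome 1 (1130921 to 1134710). All 8 regions were distal, and 6 of them were called in all 4 accessions. Bay-0 called all 8, and Bur-0, Est-1 and Tsu-1 called the same number, 6 each, because 2 regions were called in Bay-0 alone with ranks of 43.9 and 13.9. The IAA16 cluster had 8 regions as well, but only 2 in all 4 accessions. Bay-0 called 4 of its regions, Bur-0 5, Est-1 5 and Tsu-1 5. Next to IAA16, 505 bp away, stood a region called in Bay-0 with rank 92.1 and in Bur-0 with rank 96.1. The neighbouring region, 325 bp from the gene, was called in Est-1 with rank 90.3 and in Tsu-1 with rank 94.98, and no list held both. The first region ended at 1287650 and the neighbouring one began at 1287681. Whether they are separate sites or shifted peaks of the same site was not tested. The IAA29 cluster was weak throughout, with no rank above 33.0 in any list.

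The other hormone and light lists were short, and their shares rest on 1 to 3 leading genes each, beside 1.46% of all genes. Cytokinin response regulators and receptors gave ARR9 and RR1 among 24 genes (8.33%, 1.03 to 27.0). Gibberellin, brassinosteroid, abscisic acid and ethylene genes gave GAI, a DELLA repressor of gibberellin response, and ABI1, a phosphatase of abscisic acid signalling, among 48 (4.17%). JAZ genes, repressors of jasmonate response, gave JAZ6 among 13 (7.69%). At GAI all 7 regions were nearest to the gene itself; Bay-0 called 6, Bur-0 6, Est-1 7 and Tsu-1 7. Light signalling genes led in 3 of 33 cases (9.09%, 1.92 to 24.3): the blue-light receptor gene CRY1, SPA1, a partner of COP1, and PIL6, a phytochrome-interacting factor gene. Expansin and XTH genes, which loosen or remodel the cell wall during growth, led in 4 of 64 cases, at EXPA8, EXPA10, XTH7 and XTH24.

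Receptor-like kinase and cytochrome P450 genes stood near the rate of all genes, with 2 of 157 (1.27%) and 2 of 229 (0.873%). No gene led a cluster among 21 clock genes, 52 nuclear photosynthesis genes, 65 RALF and CLE peptide genes, 22 NLR immune receptor genes, 27 heat shock protein genes, 22 histone genes, 47 glutathione transferase genes, 21 seed storage and late embryogenesis genes, 20 reference genes and 35 genes known for natural variation. The rate of all genes gives fewer than 1 leading gene for each of these lists, 0.762 for the photosynthesis genes for example, so a count of 0 lies close to it. Photosynthesis genes had a median of 1102 bp in the larger flanking space and leading genes 4434.5 bp.

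**Figure D3:**
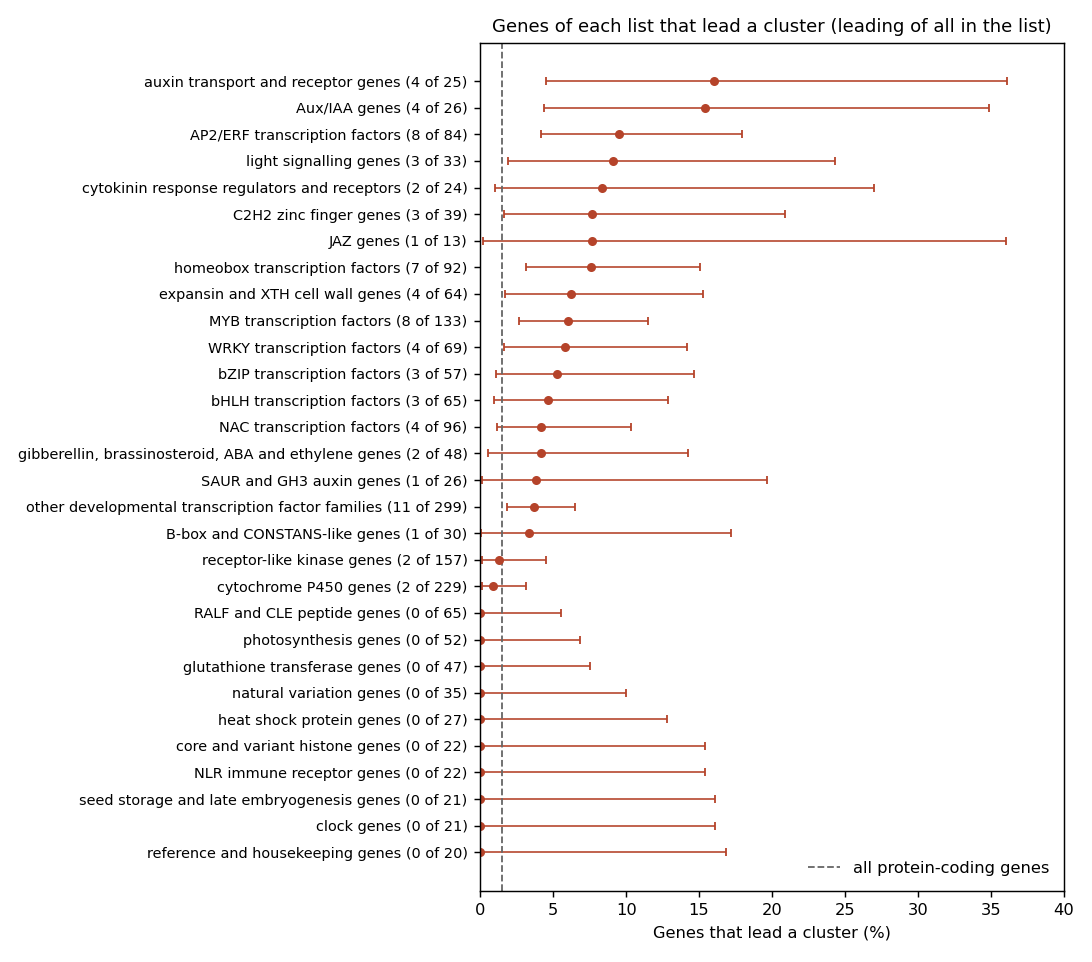
Points show the percentage of genes on each of 30 lists that led a cluster, with 95% exact intervals as whiskers, and the dashed line marks all protein-coding genes at 1.46%. Auxin transport and receptor genes (16.0%), Aux/IAA genes (15.4%) and AP2/ERF genes (9.52%) stand at the top, and 10 lists have no leading gene.

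Cluster regions were stronger than other regions in every list. Strength also rose with chain length outside clusters. The median highest rank in any list was 40.5 in chains of 1 region, 68.7 in chains of 4 and 73.6 in chains of 5. The median rank of called regions in clusters was 73.2 in Bay-0, 74.1 in Bur-0, 73.2 in Tsu-1 and 73.3 in Est-1; among other regions it was 48.2 in Bay-0, 48.1 in Bur-0, 47.9 in Tsu-1 and 48.0 in Est-1. Ranks above 95 were held by 14.5% of the cluster regions called in Bur-0 and by 4.23% of the other regions called there. The same shares were 14.05% and 4.37% in Bay-0, 13.7% and 4.41% in Est-1, and 14.4% and 4.29% in Tsu-1. Cluster and other regions were equally wide at the median, 170 bp. In each list 99.9% of peaks were 150 bp wide, so this width is largely set by the peak calls and the merging.

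Despite that strength, sharing between accessions was close to that of the whole set. Of the 2422 cluster regions, 1365 (56.4%, 54.4 to 58.3) were called in all 4 accessions, against 54.2% (53.7 to 54.7) of the other regions and 54.3% of all regions. Regions called in a single accession numbered 421 in clusters (17.4%, 15.9 to 19.0), against 17.5% of the other regions and 17.5% of all regions. At equal strength, cluster regions were called in all 4 lists less often. Among regions whose highest rank in any list lay between 40 and 60, 25.9% of 374 cluster regions were in all 4 (21.6 to 30.7), against 59.7% of other regions (58.5 to 60.9). Between 60 and 80 the shares were 63.4% and 80.3%, between 80 and 90 they were 75.8% and 88.1%, and between 95 and 100 they were 87.1% (83.6 to 90.2) and 92.5% (91.2 to 93.6). A call in 1 list counts towards the 5 regions of a cluster as much as a call in 4, so the rule gathers places with extra calls, and its part in this gap was not tested.

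Outermost and inner regions of a cluster differed in the same measure. The 830 outermost regions, the first and last of each cluster, were called in all 4 accessions in 62.8% of cases (59.4 to 66.1), and the 1592 inner regions in 53.0% (50.5 to 55.5). Calls in 1 accession made up 11.8% of outermost and 20.3% of inner regions. At equal strength the outermost regions had the higher share in every class of highest rank, but the intervals overlapped in most classes. They stayed apart between 40 and 60, at 38.5% (30.1 to 47.4) of outermost and 19.3% (14.5 to 24.8) of inner regions. The same held between 90 and 95, at 89.8% (81.5 to 95.2) and 73.8% (66.4 to 80.3). Between 95 and 100 they overlapped, at 93.1% (87.4 to 96.8) and 84.5% (79.9 to 88.4). A peak placed slightly differently in 1 list can count as a region of its own, and its part in this difference was not tested. Of the 615 pairs of neighbouring cluster regions at most 150 bp apart, 83 (13.5%, 10.9 to 16.5) were pairs in which no list called both, and in 48 of these each list called one of them. Among 2758 such pairs outside clusters 25.7% (24.1 to 27.4) had no list calling both. These shares are per pair, and close neighbours were more common in clusters. Of the 421 cluster regions called in 1 accession, 249 (59.1%, 54.3 to 63.9) had a neighbour within 150 bp, against 23.8% (22.7 to 24.9) outside clusters. For regions called in all 4 the shares were 34.7% and 10.6%. When peaks up to 150 bp apart were merged first, 171 clusters were left, and 68.8% (65.7 to 71.7) of their regions were called in all 4, against 60.2% (59.6 to 60.7) of the other regions under the same merging.

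**Figure D4:**
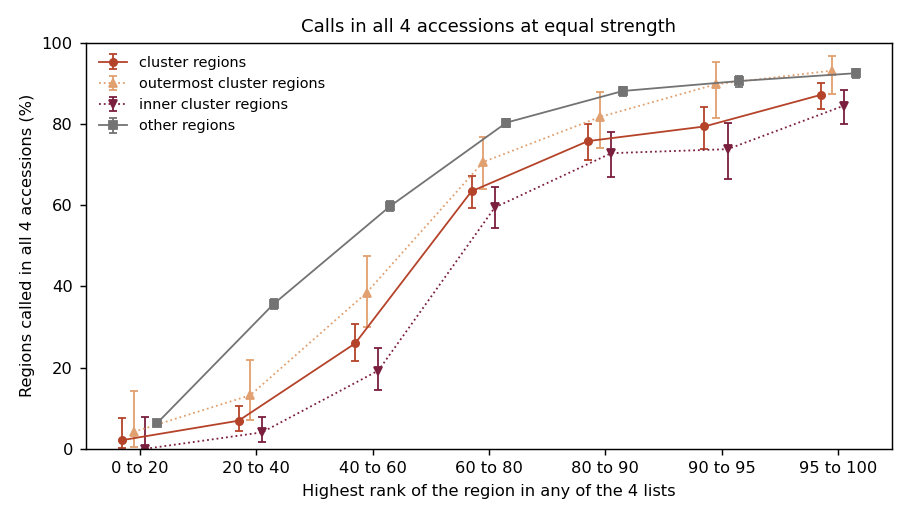
The vertical axis gives the percentage of regions called in all 4 accessions, in classes of the highest rank a region reached in any list on the horizontal axis, for cluster regions, their outermost and inner members, and other regions, with 95% exact intervals. From 20 upwards cluster regions lie below other regions in each class, for example 25.9% against 59.7% between 40 and 60, and inner regions lie below outermost ones.

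Each accession contributed a similar number of calls. Within clusters Bay-0 called 1858 regions, Bur-0 1850, Est-1 1894 and Tsu-1 1892. These were 6.47% of the regions in the Bay-0 list, 7.34% in the Bur-0 list, 6.40% in the Est-1 list and 6.93% in the Tsu-1 list. Taken alone, the regions called in Bur-0 still formed a chain of 5 or more in 146 clusters, those of Bay-0 in 138, those of Est-1 in 160 and those of Tsu-1 in 154. By the merged regions called in each list, only 50 clusters were formed in every list, 48 in 3 lists, 54 in 2 and 146 in 1. The other 117 were reached only by the lists together. Between the list with the most and the list with the fewest calls in a cluster, the difference was 0 regions in 34 clusters, 1 in 189, 2 in 136 and 3 or more in 56.

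The strongest region of a cluster was usually the same one. In 226 clusters (54.5%) all 4 lists had their highest rank at the same region, in 123 clusters 3 lists did and in 66 clusters 2 lists did. In chains of 4 regions the share with all 4 lists at the same region was 56%. At least every other region was called in all 4 accessions in 281 clusters (67.7%), every region in 15 and no region in 5. CKI1, which encodes a histidine kinase that activates cytokinin signalling, led the only cluster of 6 or more regions with every region in all 4 lists (chromosome 2, 19465181 to 19468230). All its 7 regions were distal. The strongest region there differed between lists: the region 1341 bp from AT2G47440 ranked 70.4 in Bur-0 and above 99.8 in the other lists. In Bur-0 the region 1094 bp from CKI1 ranked highest at 92.1.

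Regions that the other 3 accessions held but 1 lacked were counted for each accession in turn. Bur-0 lacked 140 of 1505 such cluster regions (9.30%, 7.88 to 10.9), against 13.4% (13.0 to 13.9) of the other regions and 13.1% of all regions. Bay-0 lacked 65 of 1430 (4.55%, 3.53 to 5.76), against 3.42% of the other regions and 3.5% of all. Est-1 lacked 67 of 1432 (4.68%, 3.64 to 5.90), against 3.66% and 3.73%. Tsu-1 lacked 69 of 1434 (4.81%, 3.76 to 6.05), against 5.66% and 5.6%. At equal strength the cluster share was the higher one in all 4 accessions, with overlapping intervals in some classes. Where the lowest rank in the other 3 lists lay between 25 and 50, Bur-0 lacked 17.4% (13.5 to 22.0) of cluster regions and 11.7% (10.9 to 12.6) of other regions. In that class Bay-0 lacked 10.9% and 3.78%, Est-1 10.1% and 4.08%, and Tsu-1 9.70% and 5.02%. Between 50 and 75, Bur-0 lacked 9.15% (6.62 to 12.3) of cluster regions and 3.91% (3.41 to 4.46) of other regions. In the classes from 0 to 25 and from 75 to 100 the Bur-0 intervals overlapped: 43.5% (28.9 to 58.9) against 32.6% (31.3 to 33.8), and 3.42% (2.21 to 5.05) against 2.31% (1.89 to 2.79). From 75 to 100 Est-1 lacked 1.23% of cluster regions and 1.05% of other regions.

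LSU2, a gene induced by sulfur deficiency, led the only cluster in which an accession had no call at all. Its 5 regions on chromosome 5 (8444801 to 8446170) were called 3 times in Bay-0, 4 times in Bur-0, never in Est-1 and 4 times in Tsu-1. The strongest call of each list ranked 85.3 in Bur-0, 80.5 in Bay-0 and 78.0 in Tsu-1, and only 2 of these lists had it at the same region. Est-1 had no peak over 21570 bp around it, its nearest ones lying 7710 bp to the left and 12490 bp to the right. That stretch held 9 regions, of which Bay-0, Bur-0 and Tsu-1 called 7 each, and the genes LSU4, LSU2, EMB2820 and AT5G24680. Closed chromatin, a deletion and loss of reads to sequence differences cannot be told apart here.

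Bur-0 fell farthest below the other lists at ABCC4, an ABC transporter gene, LTPG1, a lipid transfer protein gene of the cell surface, AT1G14910 and AT1G35610, which were tied with AT4G11810. It called 1 of 5 regions at ABCC4, where Bay-0 called 4, Est-1 2 and Tsu-1 4. At AT1G14910 it called 1 of 5, with 3 in Bay-0, 4 in Tsu-1 and 3 in Est-1, and the only region it held there was the strongest in the other lists too. Regions near ABCC4 and AT1G14910 that Bur-0 lacked ranked at most 46.9 in any list. At LTPG1 the counts were 5 in Bay-0, 2 in Bur-0, 4 in Tsu-1 and 4 in Est-1.

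Bay-0 was lowest at AT5G54585, PMT5, AT1G69526 and HBI1. PMT5 encodes a polyol and monosaccharide transporter, and Bay-0 called 3 of 6 regions there, where Bur-0 called 6, Est-1 4 and Tsu-1 6. HBI1, a growth-promoting bHLH gene, had 2 of 5 regions called in Bay-0, 5 in Bur-0, 3 in Tsu-1 and 3 in Est-1. Besides LSU2, Est-1 was lowest at AT2G03240, AT3G57110 and RMI1, a genome stability gene, with 2 of 5 regions called at each. At AT3G57110 the 3 regions at the gene end were called in Bur-0 with ranks of 96.2, 80.4 and 91.1, in Tsu-1 with ranks of 24.9, 23.4 and 10.9957, in Bay-0 only for the first 2, and in Est-1 not at all. Tsu-1 was lowest at AT2G08986, BZO2H3, AT1G32090 and AT5G30520. At BZO2H3, a bZIP gene, it called 2 of 5 regions, and those ranked 99.9 and 99.7 in its list.

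Gene-poor stretches held 12 clusters with 67 regions, all in bins of 100 kb where protein-coding genes numbered below 15. Bur-0 called 56 of these regions (83.6%), Bay-0 38 (56.7%), Est-1 39 (58.2%) and Tsu-1 31 (46.3%). In the 403 clusters elsewhere, Bur-0 called 76.2% of regions, Bay-0 77.3%, Est-1 78.8% and Tsu-1 79.0%. The part of the rule in the high Bur-0 share was not tested. Of the 12 clusters, 5 reached 5 regions in a row through the merged regions called in Bur-0 and through no other single list. Another 2 did so through Est-1 alone, 1 through Tsu-1 alone and 0 through Bay-0 alone. Without the 5 of Bur-0, chosen after the data were seen, Bur-0 called 28 of 39 regions (71.8%) and Bay-0 28 (71.8%). Est-1 called 27 (69.2%) and Tsu-1 24 (61.5%). Leaving out those 5 lowers the Bur-0 share by the way they were chosen, and the clusters of Est-1 alone and Tsu-1 alone were kept. Among the 1187 gene-poor regions outside clusters Bur-0 had the lowest share, with 60.5% called, where Bay-0 called 66.0%, Est-1 68.0% and Tsu-1 66.6%. The median rank of the called regions in gene-poor stretches was 70.9 in Bay-0, 91.1 in Bur-0, 52.1 in Tsu-1 and 64.0 in Est-1.

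On chromosome 5, 3 clusters (11726061 to 11736330) had AT5G30520 as nearest protein-coding gene, 89423 to 99523 bp away, in a bin with 15 annotated pseudogenes and no protein-coding gene. Bur-0 called all 7, 6 and 5 of their regions. In the cluster of 7, Bay-0 called 6, Est-1 5 and Tsu-1 3, and the Bur-0 ranks ran up to 99.9. Inside AT2G08986, Bay-0 called 2 of 6 regions, Bur-0 6, Est-1 4 and Tsu-1 1. The region called in all 4 lists there ranked 26.4 in Bay-0, 99.9 in Bur-0, 15.2 in Tsu-1 and 38.9 in Est-1. AT2G07981, its neighbour on chromosome 2, showed 2 of 6 regions in Bay-0, 6 in Bur-0, 1 in Tsu-1 and 1 in Est-1. On chromosome 4, 2 clusters had AT4G06688 as nearest protein-coding gene, in a bin with 19 annotated pseudogenes. The cluster 26304 to 28344 bp from that gene had 4 of 7 regions called in Bay-0, 6 in Bur-0, 3 in Tsu-1 and 2 in Est-1. Of the 5 regions of the other cluster, 29124 to 31004 bp away, Bay-0 called 2, Bur-0 5, Est-1 2 and Tsu-1 1. The part of pseudogenes and other repeated sequence in these counts was not tested.

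**Figure D5:**
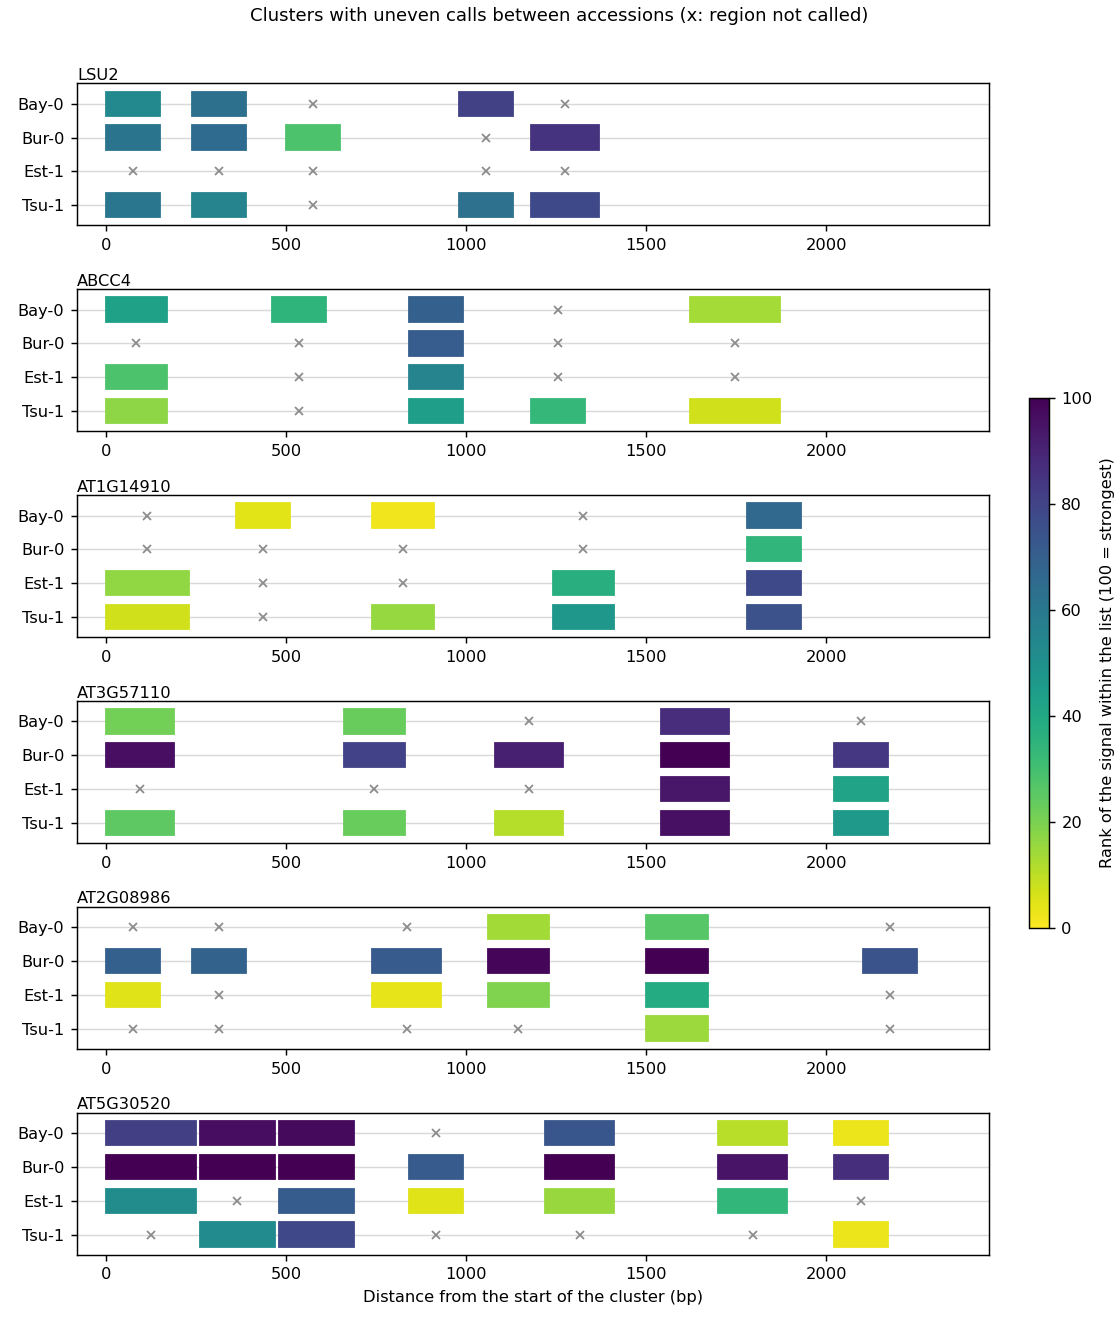
Panels show 6 clusters named by leading gene, with distance from the cluster start in bp on the horizontal axis and 1 row per accession; boxes are called regions coloured by rank in that list and crosses are regions not called. Est-1 has no box at LSU2, Bur-0 has 1 box each at ABCC4 and AT1G14910, and at AT2G08986 and AT5G30520 Bur-0 has a box at every region.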

How the data were processed

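DNase I-seq peak lists of 4 libraries, 1 per accession, were analysed, grouped by the accession in the source label. Alignment used Bowtie 0.12.7 and TAIR10, per the submitters' processing notes; how peaks were called, and the depth, are not stated there. The signal column deposited by the authors holds whole numbers of unstated scaling and served only to rank peaks within each list. The deposited −log10 p column, with a ceiling of 324, served to break ties when the authors' lists were shortened.

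Touching or overlapping nuclear peaks were merged and chained at gaps of at most 500 bp. A region was called in an accession when its list had a peak there. Genes came from a RefSeq table of assembly TAIR10.1 without strand, exons or sequence; its fit was checked with regions shifted against gene ends over 20 kb either way, and the best shift was 0 bp on each chromosome. No sequence or coordinate of that table is printed. The 30 gene lists were matched by symbol, and 52 matches whose full name belongs to another family were removed after matching.

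The members, the lists and the tests were chosen with earlier results of these data known. The text names the 12 clusters with the most regions, per accession the 4 clusters in which its share of regions lay farthest below the mean of the other 3 (ties by more regions, then longer span), clusters of at least 6 regions with every region in all 4 accessions, up to 4 leading genes per list, UBQ10 and ACT2; other genes were named after their values were seen. The values of 1 leading gene are not reported here. Merging and chaining were tested on simulated data. Python 3.11.15, pandas 2.3.3, numpy 2.4.6, scipy 1.17.1 and matplotlib 3.10.9 were used. Alternatives were other gaps, chain lengths, merging distances and gene windows, equal or shortened lists, lists left out, each list chained alone, clusters outside gene-poor stretches and gene-poor clusters that did not rest on the Bur-0 list alone, the last 3 added after the data were seen.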

Additional observations from a re-analysis of the deposited data

Results flagged for a closer look

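Peaks on the chloroplast and mitochondrial genomes stood outside all comparisons made here. Their numbers were 296 for Bay-0, 269 for Bur-0, 301 for Est-1 and 246 for Tsu-1. The lists hold no control sample to set them against, and none of them entered a cluster.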

How the results depend on the processing

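Of 110 alternative values, 60 stayed within 1.5 times the count or within the interval of the share reported, 50 moved and 0 changed direction. Most of these values were counts, which have no direction to change, so the 0 says little. The number of clusters was 188 with chains of 6 or more regions, 1326 with gaps up to 1000 bp, 102 with gaps up to 300 bp, 171 with merging of peaks at distances to 150 bp, 198 with regions in at least 2 lists and 152 with the stronger 50% of each list. The regions in them numbered 1287, 8867, 558, 970, 1121 and 877 in the same order. Clusters formed by the own regions of an accession, under chains of 6, gaps of 1000 bp, gaps of 300 bp, merging at 150 bp and the stronger 50%, numbered 68, 600, 30, 85 and 57 in Bur-0, 45, 666, 24, 74 and 47 in Bay-0, 60, 712, 36, 84 and 66 in Est-1, and 53, 658, 21, 90 and 57 in Tsu-1. The share of cluster regions at gene ends was 24.0% with chains of 6, 32.0% with gaps of 1000 bp, 28.9% with gaps of 300 bp, 24.1% with merging at 150 bp, 24.0% with regions in at least 2 lists, 22.1% with the stronger 50% and 16.5% with a window of 200 bp. The share in all accessions was 53.9% with gaps of 300 bp, 68.8% with merging, 67.3% with regions in at least 2 lists and 53.9% with the stronger 50%. Without 1 list it counts regions in the other 3, and was 64.2% without Bur-0, 59.7% without Bay-0, 59.4% without Est-1 and 60.1% without Tsu-1. Transcription factor genes led 9.73% of clusters with gaps of 1000 bp and 9.80% with gaps of 300 bp, and stood nearest to any region of 17.3% of clusters. The causes of these moves were not tested, beyond the fewer or more calls each setting admits. With lists of equal length, 384 of the 415 clusters were still met by a cluster; without the Bur-0 list, 315 were. No paired analysis was possible because each accession had 1 library. Depth is unknown, so weak regions that 1 list lacks cannot be told apart from regions under its threshold.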

Other observations

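A family outside the lists was picked because its members led clusters, so its count is description and no test was made. Of the 5 BTB and TAZ domain genes, adaptor proteins of nutrient and hormone responses, 3 led a cluster: BT1, BT2 and BT5, where 1.46% of all protein-coding genes did.

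Of the 100 kb bins with at least 1 region, 833 held no cluster, 232 held 1, 62 held 2, 14 held 3, 3 held 4 and 1 held 5; these counts were not compared with the spread of all regions. The bin with 5 clusters and 33 regions lay on chromosome 1 (4522561 to 4585570), with RAV1, RTFL17, AT1G13370 and, in 2 clusters, AT1G13360 as leading genes. A bin on chromosome 5 (26220221 to 26251650) held 4 clusters with 32 regions, led by AT5G65660, GTE7, a bromodomain protein gene, AT5G65650 and AT5G65610.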
